A study of Rattus norvegicus with 6 samples.

Results

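Smooth muscle and mesenchymal cytoskeleton genes were followed at rat colonic anastomoses, the sites where cut ends of the large bowel had been rejoined. The set holds 4 genes, the actin Acta2, the actin-binding protein gene Tagln and the intermediate filament genes Des and Vim. They were picked by Ensembl identifier from a table of 21417 rat genes. The rule used no measured values, but earlier results of these data were known when it was set. The identifiers are ENSRNOG00000058039 for Acta2, ENSRNOG00000017628 for Tagln, ENSRNOG00000019810 for Des and ENSRNOG00000018087 for Vim. The deposited table lists identifiers without symbols, and these 4 names came with the definition of the set. No other gene could be named, because 0 identifiers of the table matched the reference used here, so other smooth muscle and cell type markers are not analysed here.

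Tissue came from male Sprague-Dawley rats, an outbred laboratory stock, of 200 to 230 g body weight, whose age the labels do not give. All animals had an end-to-end colonic anastomosis, and the tissue was taken 2 weeks later. In 3 libraries the join had been made by magnetic compression anastomosis (MCA), in which a pair of magnets presses the bowel ends together until they fuse. In the other 3 libraries, the controls, it had been made by conventional suture. The labels speak of biological replicates without saying how animals map to libraries, so p-values measure the spread between these libraries. Library totals recovered from the values lay between 14867454 and 15791079 fragments, so depth hardly differed. MCA replicate 2 was least like the others over all genes kept: its mean rank correlation with the other 5 libraries was 0.850. MCA replicate 3 came next at 0.880, and the rest gave 0.895 to 0.926.

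The muscle coat of the colon is built of smooth muscle cells, which contract by sliding actin past myosin. Acta2 encodes the smooth muscle form of alpha-actin, which is also made by vascular smooth muscle, pericytes and the myofibroblasts of healing wounds. Tagln encodes transgelin (SM22 alpha), a small protein that binds actin filaments in the same cells. Des encodes desmin, the intermediate filament of muscle cells, which ties the contractile apparatus together. Vim encodes vimentin, the related intermediate filament of fibroblasts, endothelium, leukocytes and other mesenchymal cells. The comparison asked whether these genes differed between MCA and suture, and how far the pieces within a group differed in them, as a sign of how much muscle wall each piece held. In bulk tissue, fewer cells of a type in a piece and less RNA per cell cannot be told apart.

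Smooth muscle genes are commonly driven by the CArG box, a motif of CC, 6 bases of A or T, and GG that binds serum response factor. To set the muscle genes beside Vim, the 250 bases before the start site of these genes were searched on both strands. Promoters of 3 of the 4 genes matched in RefSeq (build GRCr8), Tagln being the exception. The build of the deposited table is not given in the sources used here. The sequences follow 5′ to 3′ on the gene's strand, from chr1:241172504-241172753 (minus strand) for Acta2, chr9:84299376-84299625 (plus strand) for Des and chr17:81577011-81577260 (plus strand) for Vim. Capitals mark CArG boxes with at most 1 of the 6 central bases not A or T, and TATA motifs.
Acta2: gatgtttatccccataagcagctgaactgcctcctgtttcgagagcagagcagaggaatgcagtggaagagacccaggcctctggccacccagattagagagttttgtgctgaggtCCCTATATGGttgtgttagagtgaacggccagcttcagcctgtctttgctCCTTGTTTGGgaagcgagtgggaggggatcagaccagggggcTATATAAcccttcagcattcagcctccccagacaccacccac
Des: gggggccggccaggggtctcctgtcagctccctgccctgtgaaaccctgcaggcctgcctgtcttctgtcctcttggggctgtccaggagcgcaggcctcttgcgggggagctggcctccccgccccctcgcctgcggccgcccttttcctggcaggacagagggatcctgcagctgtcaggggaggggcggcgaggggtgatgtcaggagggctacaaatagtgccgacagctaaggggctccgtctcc
Vim: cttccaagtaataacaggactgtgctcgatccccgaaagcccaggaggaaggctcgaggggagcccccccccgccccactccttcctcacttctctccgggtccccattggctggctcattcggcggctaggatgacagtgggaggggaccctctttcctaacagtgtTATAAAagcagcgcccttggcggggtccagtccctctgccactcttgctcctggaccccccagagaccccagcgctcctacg

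The Acta2 window held CCCTATATGG, 134 to 125 bases before the start site, and CCTTGTTTGG, 84 to 75 bases before it, each with 1 central base that is not A or T. A match of this kind was present in 8.08% of 33469 rat promoter windows of the same length, and a strict CArG box in 501 of them. None of the 3 windows held a strict match, and those of Des and Vim held no match of either kind. TATATAA stood 42 to 36 bases before the Acta2 start site, a motif found in 3.42% of windows. Vim had TATAAA at 82 to 77 bases, found in 12.9% of windows. Des and Vim also held the GC-rich motif GGGCGG on either strand, at 3 places and 1 place, against 30.5% of windows with at least 1. The E-box CANNTG occurred once each in Acta2 and Des, as CAGCTG, and 65.5% of windows held one. No CArG box overlapped a TATA motif in these windows. These matches describe letters in the sequence and show neither binding nor use.

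The 3 muscle genes were abundant in every piece, and their levels did not separate MCA from suture. Levels are in FPKM, fragments scaled to gene length and library total, which allows comparison between genes. Tagln stood highest of the 4 genes in every library, Acta2 and Des lay close to each other below it, and Vim was lowest in every library. All 4 genes were kept by the filter on low values, a mean of at least 1 FPKM, which kept 13591 genes in all. Tagln ranked between 7 and 10 among all genes of a library except in MCA replicate 3, where it ranked 33. Des ranked 11 to 20 and Acta2 11 to 22 in the other 5 libraries, and they ranked 103 and 109 in MCA replicate 3.

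Tagln measured 5119, 12338 and 1190 FPKM in MCA replicates 1, 2 and 3, and 4635, 7962 and 8280 FPKM in suture replicates 1, 2 and 3. The highest and the lowest library of all 6 thus belonged to the MCA group, and every suture library lay between them. The group means were 6216 ± 5654 FPKM for MCA and 6959 ± 2019 FPKM for suture (SD, n = 3 each).

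Acta2 measured 2253, 5549 and 621 FPKM in MCA replicates 1, 2 and 3, and 1859, 3789 and 4396 FPKM in suture replicates 1, 2 and 3. Its libraries stood in exactly the order of Tagln: MCA replicate 3 lowest, then suture 1, MCA 1, suture 2, suture 3 and MCA replicate 2 highest. Means were 2808 ± 2510 FPKM for MCA and 3348 ± 1325 FPKM for suture (SD, n = 3 each). Acta2 has near-identical actin paralogs, so its level depends on how the authors' counting assigned shared reads, which is not given in the sources used here.

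Des measured 2676, 6382 and 642 FPKM in MCA replicates 1, 2 and 3, and 2084, 3744 and 3134 FPKM in suture replicates 1, 2 and 3. Again MCA replicate 3 was lowest and MCA replicate 2 highest, with the suture libraries inside that range. The MCA mean was 3233 ± 2910 FPKM (SD, n = 3) and the suture mean 2987 ± 840 FPKM (SD, n = 3).

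Vim measured 397, 527 and 312 FPKM in MCA replicates 1, 2 and 3, and 147, 268 and 362 FPKM in suture replicates 1, 2 and 3. Here the 2 lowest libraries were suture replicates 1 and 2, the 2 highest were MCA replicates 2 and 1, and the groups overlapped only through MCA replicate 3 and suture replicate 3. Means were 412 ± 108 FPKM for MCA and 259 ± 108 FPKM for suture (SD, n = 3 each), and the MCA mean was 1.59 times the suture mean.

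**Figure D1:**
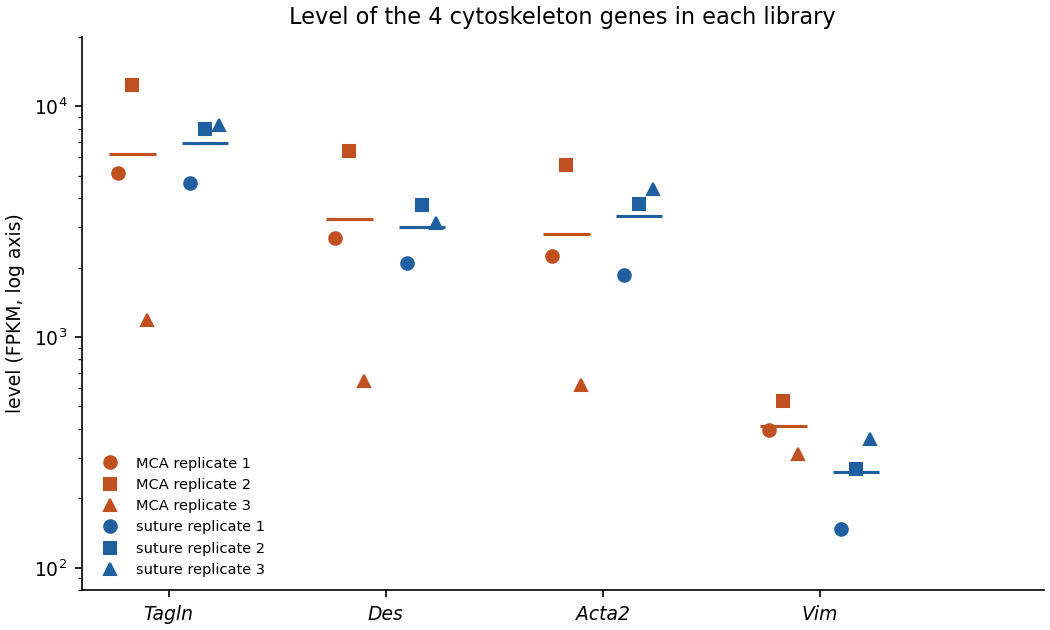
Level of each gene in each library, in FPKM on a log axis, with 1 symbol per library and a line at the group mean (n = 3). MCA replicate 3 (orange triangle) lies below and MCA replicate 2 (orange square) above every suture library in Tagln, Des and Acta2, whereas Vim spans 147 to 527 FPKM.

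Within the MCA group the muscle genes spanned an order of magnitude. The highest MCA library exceeded the lowest by a factor of 10.4 for Tagln, 9.93 for Des and 8.93 for Acta2. Within the suture group the corresponding factors were 1.79, 1.80 and 2.37. For Vim the order of the groups was the other way round, with factors of 1.69 in MCA and 2.46 in suture. Whether the spread itself differed between the groups was not tested.

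Both MCA extremes lay away from MCA replicate 1, and by ratio MCA replicate 3 lay the farther. MCA replicate 2 exceeded MCA replicate 1 by factors of 2.41 for Tagln, 2.38 for Des and 2.46 for Acta2, and MCA replicate 1 exceeded MCA replicate 3 by 4.30, 4.17 and 3.63. In the suture group, replicate 1 was the low library for all 4 genes. Replicates 2 and 3 there differed by a factor of 1.04 for Tagln, 1.19 for Des, 1.16 for Acta2 and 1.35 for Vim. Together Tagln, Des and Acta2 took 3.71% of all fragments in MCA replicate 2 and 0.375% in MCA replicate 3, against 1.54% in MCA replicate 1. In suture replicates 1, 2 and 3 they took 1.29%, 2.34% and 2.33%.

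Counting error was far smaller than these differences. Between 4243 and 230024 fragments stood behind each value, which gives a counting error of at most 1.54%, reached for Vim in suture replicate 1. This covers counting error only, since reads copied by PCR are not independent molecules. The 7 most abundant genes of the table took 30.6% of total FPKM in MCA replicate 2, where the muscle genes were highest, and 33.6% in MCA replicate 3, where they were lowest. Their share was 19.8% in MCA replicate 1, and 18.7%, 37.3% and 20.4% in suture replicates 1, 2 and 3. Rescaling the libraries without the 10 most abundant genes, or to a common median gene, left each gene's SD of log2 within 1.5 times of its value in both groups.

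On the log2(FPKM + 1) scale the SD within MCA was 1.70 for Tagln, 1.67 for Des and 1.59 for Acta2, and 0.38 for Vim. Within suture it was 0.47, 0.43 and 0.66, and 0.66 for Vim. The MCA values of the muscle genes lay at percentiles 98.0, 97.8 and 97.3 of all 13591 genes kept, whose median SD within MCA was 0.36. Among the 679 genes averaging 100 FPKM or more, which vary more (median 0.57), they lay at percentiles 91.8, 90.6 and 89.2. Vim stood at percentile 52.2 of all genes kept within MCA and at 87.6 within suture. Within suture, Tagln, Des and Acta2 stood at percentiles 71.3, 67.1 and 87.7 of all genes kept. Among the 679 more abundant genes the suture values of these 3 genes lay at percentiles 58.5, 52.9 and 80.4. Vim lay there at percentile 26.2 within MCA and at 79.7 within suture. These percentiles place the genes among the others and carry no test. Without MCA replicate 3 the SD within MCA was 0.90 for Tagln, 0.89 for Des and 0.92 for Acta2. Without suture replicate 1 the SD within suture was 0.04 for Tagln, 0.18 for Des, 0.15 for Acta2 and 0.30 for Vim. Without MCA replicate 2, that of Vim within MCA was 0.25.

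**Figure D2:**
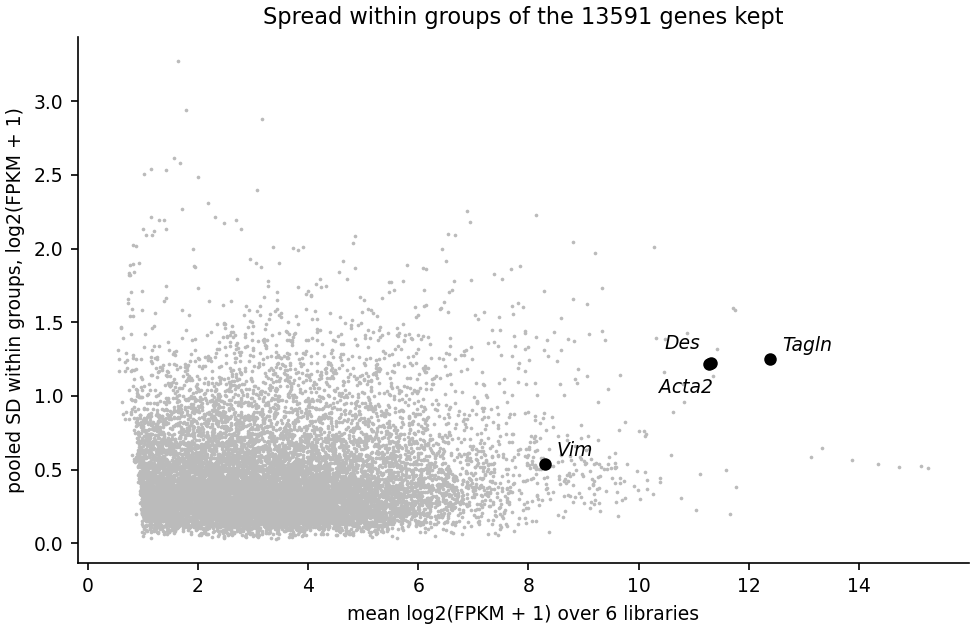
Pooled SD within groups against mean level for the 13591 genes kept, both in log2(FPKM + 1), with each grey point a gene and the 4 members in black. Tagln, Des and Acta2 have pooled SDs of 1.25, 1.22 and 1.22, where the median of the 679 genes averaging 100 FPKM or more is 0.53, and Vim has 0.54.

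No difference between MCA and suture passed the test for any of the 4 genes. The test was limma on log2(FPKM + 1) over all 13591 genes, with Benjamini-Hochberg adjustment and a threshold of 0.05. Of the genes tested, 0% passed the adjusted threshold, and 4.91% had an unadjusted p under 0.05, which none of the 4 genes had. The groups did not overlap in 8.70% of genes, and they overlapped for each of the 4. In absolute size the median log2 difference over all genes tested was 0.21.

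Tagln differed by -0.67 log2 units (MCA minus suture, standard error 0.88, 95% interval -2.77 to 1.42, limma adjusted p = 1.00). Acta2 gave -0.66 (standard error 0.84, interval -2.65 to 1.32, limma adjusted p = 1.00), and Des gave -0.38 (standard error 0.84, interval -2.38 to 1.61, limma adjusted p = 1.00). For Des the mean FPKM was higher with MCA while the mean log2 value was lower. Intervals this wide leave a doubling and a halving of all 3 muscle genes inside the range, so a difference of that size was not detectable with these libraries. The half-widths were 2.09, 1.98 and 1.99 log2 units for Tagln, Acta2 and Des, where the median gene had 0.71. Exact permutation tests of each gene over the 20 assignments of libraries (two-sided, smallest possible p 0.1) gave unadjusted p of 0.7 for Tagln, 0.7 for Acta2 and 0.8 for Des.

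The sign of the muscle gene differences rested on MCA replicate 3. Without it the log2 differences turned to 0.24 for Tagln, 0.51 for Des and 0.17 for Acta2. Without MCA replicate 2 they were -1.45, -1.15 and -1.41, with limma adjusted p of 0.688, 0.718 and 0.678. None of the 3 genes passed the threshold in any of the 16 settings run, where limma adjusted p lay between 0.673 and 1.00.

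Over all 6 libraries Vim, the mesenchymal filament gene, pointed the other way from the muscle genes in mean log2 level. Its log2 difference was 0.73 (standard error 0.42, 95% interval -0.27 to 1.72, limma adjusted p = 1.00, unadjusted p = 0.127). An exact permutation test gave p = 0.2. The difference kept its sign without each library in turn, from 0.37 without suture replicate 1 to 1.02 without suture replicate 3, and no setting brought it past the threshold (limma adjusted p 0.676 to 1.00). The contrast in sign with the muscle genes rested on MCA replicate 3. Without that library Vim gave 0.91, and Tagln, Des and Acta2 were positive too.

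**Figure D3:**
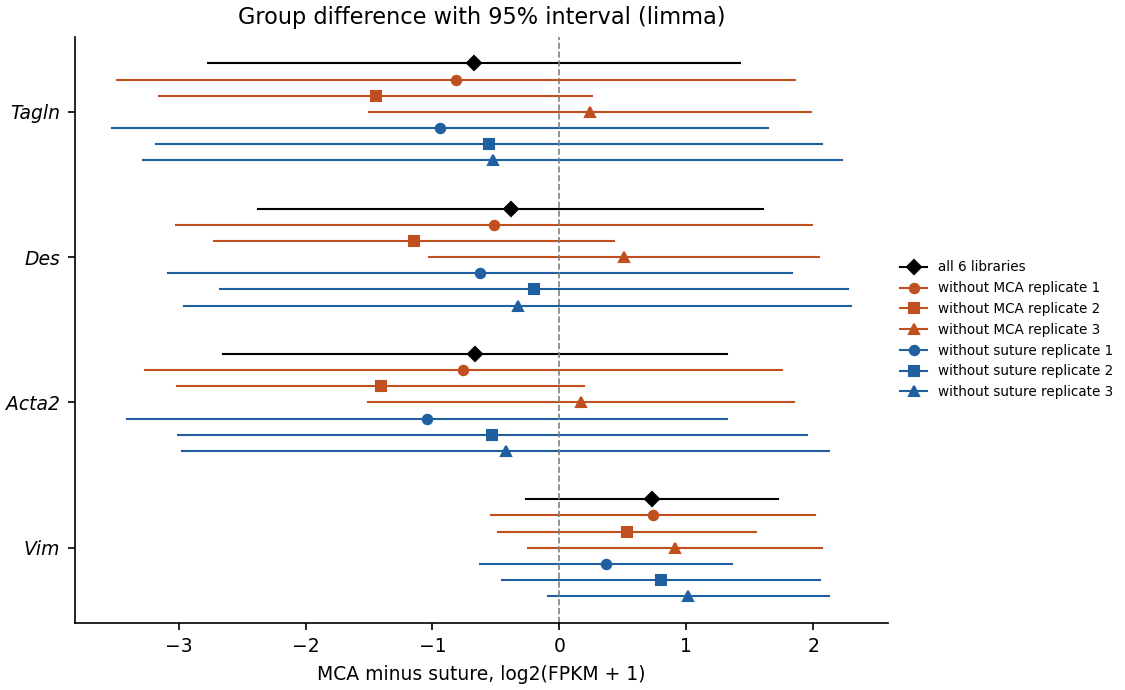
Difference of MCA minus suture in log2(FPKM + 1) with its 95% interval from limma, for all 6 libraries (black diamonds) and without each library in turn (coloured). Every interval includes 0, and the estimates of Tagln, Des and Acta2 cross 0 when MCA replicate 3 is left out.

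Tagln, Des and Acta2 varied together from library to library. Over the 6 libraries, log2 levels of Tagln and Acta2 correlated at r = 0.99 (exact permutation p = 0.00139, 0.00556 after adjustment over the 6 gene pairs) and Spearman's rho = 1.00 (exact p = 0.00278, adjusted 0.0167). Tagln and Des gave r = 0.99 (exact permutation p = 0.00278, adjusted 0.00556) and rho = 0.94 (exact p = 0.0167, adjusted 0.0333). Des and Acta2 gave r = 0.97 (exact permutation p = 0.00278, adjusted 0.00556) and rho = 0.94 (exact p = 0.0167, adjusted 0.0333). The libraries farthest from the median of the first gene were MCA replicates 2 and 3, and without them r was 0.99, 0.89 and 0.87 for these pairs. With MCA replicate 3 alone left out, r was 0.98, 0.95 and 0.89, and the exact permutation p adjusted over the pairs were 0.05, 0.05 and 0.0667, which no longer passed the threshold. With each group centred on its own mean, r was 0.99, 1.00 and 0.98, so the relation held around the group means too. All values of a library share its scaling.

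Vim gave lower correlations with the muscle genes over the 6 libraries, and none passed the test. Its r was 0.31 with Tagln, 0.37 with Des and 0.37 with Acta2 (exact permutation p = 0.507, 0.436 and 0.451, each 0.507 after adjustment). Spearman's rho was 0.60, 0.49 and 0.60 (exact p = 0.242, 0.356 and 0.242, adjusted 0.290, 0.356 and 0.290). Without MCA replicates 2 and 3, r was 0.46, 0.58 and 0.53. These values moved widely with single libraries: without MCA replicate 3, r was 0.70, 0.75 and 0.71, and without MCA replicate 2 it was 0.013, 0.037 and 0.11. With each group centred on its own mean, r was 0.69, 0.65 and 0.78 (permutation p adjusted over the pairs of 0.145, 0.164 and 0.0958). Those p are approximate, because values centred within groups are not freely exchangeable between groups. Within each group of 3, Vim, Acta2 and Tagln ordered the libraries alike, and Des did so within MCA only. From low to high the shared order was MCA 3, MCA 1, MCA 2 and suture 1, suture 2, suture 3. Within MCA, r of Vim with Tagln, Des and Acta2 was 0.98, 0.98 and 0.99 (n = 3). Within suture it was 0.96, 0.81 and 0.99 (n = 3). That the muscle genes correlate more with each other than with Vim was not tested as a difference.

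**Figure D4:**
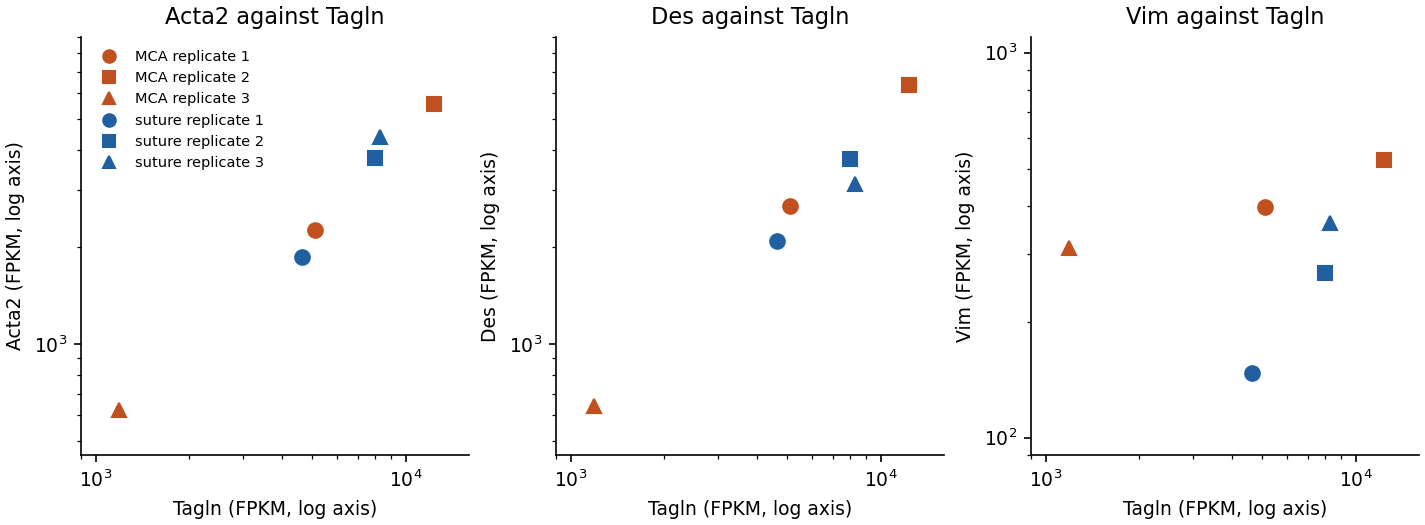
Acta2, Des and Vim against Tagln, all in FPKM on log axes (the Vim axis covers a lower range), with 1 symbol per library. Acta2 and Des increase with Tagln over the 6 libraries (r = 0.99 for each), while the points for Vim scatter more widely (r = 0.31), with MCA replicate 3 lowest in Tagln but not in Vim.

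Ratios within a library do not depend on how that library was scaled. Tagln exceeded Des by a factor of 1.91, 1.93 and 1.85 in MCA replicates 1, 2 and 3, although Tagln itself varied 10.4-fold among them. In suture replicates 1, 2 and 3 that factor was 2.22, 2.13 and 2.64, so every suture library lay above every MCA library. On the log2 scale the ratio was 0.93 ± 0.03 for MCA and 1.21 ± 0.17 for suture (SD, n = 3 each).

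Acta2 exceeded Vim by a factor of 5.68, 10.5 and 1.99 in MCA replicates 1, 2 and 3, and of 12.7, 14.1 and 12.2 in suture replicates 1, 2 and 3. The suture libraries were thus close to one another and all above the MCA libraries, of which MCA replicate 2 came nearest. On the log2 scale the ratio was 2.30 ± 1.21 for MCA and 3.70 ± 0.11 for suture (SD, n = 3 each). Without MCA replicate 3 the group difference in this log2 ratio was -0.74, against -1.40 over all libraries.

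The other 4 of the 6 ratios overlapped between the groups. Tagln to Vim came close to separating, with factors of 12.9, 23.4 and 3.82 in MCA replicates 1, 2 and 3 and of 31.6, 29.7 and 22.9 in suture replicates 1, 2 and 3. Des to Vim gave 6.75, 12.1 and 2.06 with MCA and 14.2, 14.0 and 8.66 with suture. Acta2 was below Des in all MCA libraries and in suture replicate 1, at 0.84, 0.87, 0.97 and 0.89 of its level, and above it in suture replicates 2 and 3, at 1.01 and 1.40. The level order of Acta2 and Des thus changed between libraries.

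As background, the ratio of Des to each other gene above 0 in all libraries separated the groups for 2.02% of 13357 genes, and that of Tagln for 3.53%. The ratio of Acta2 to other genes did so for 3.65%, but that of Vim to other genes for 24.1%. A separated ratio was therefore common for Vim, and no p was computed for ratios between members of the set. Even full separation of 3 and 3 libraries could reach no exact permutation p below 0.1. Tagln and Des varied together, with an SD of 0.03 for their log2 ratio within MCA. The shares of either gene against all other genes therefore do not show how rare a separated Tagln to Des ratio is.

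**Figure D5:**
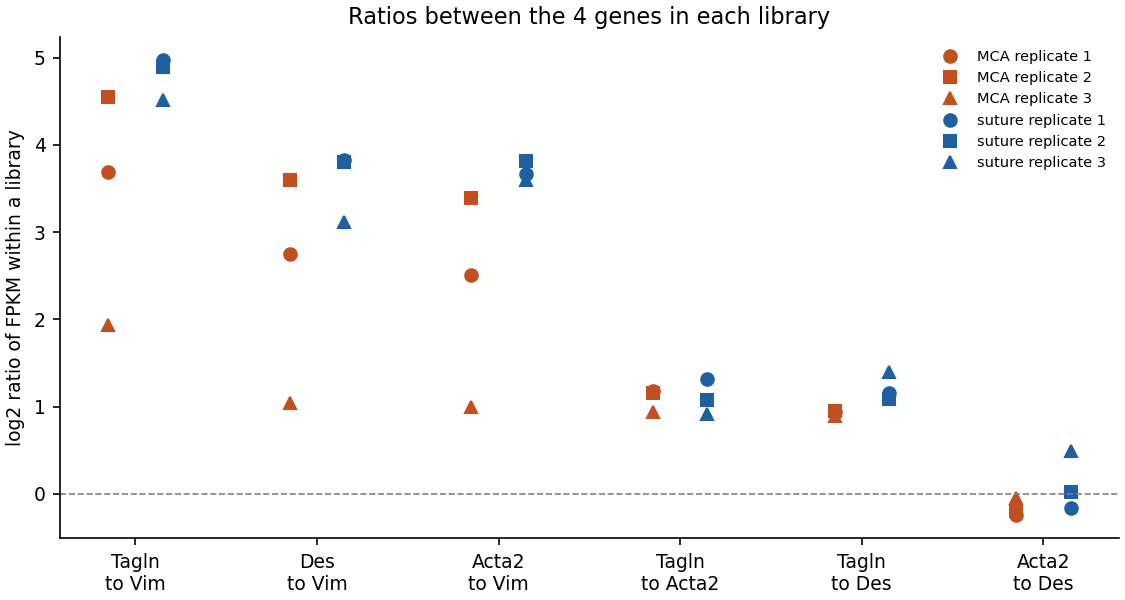
Log2 ratio of FPKM between pairs of the 4 genes within each library, with MCA to the left and suture to the right of each position. The Acta2 to Vim and Tagln to Des ratios do not overlap between the groups, and the Tagln to Des ratio of the 3 MCA libraries differs by less than 0.1 log2 units.

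Many other genes shared the library pattern of the muscle genes. Correlations of log2(FPKM + 1) over the 6 libraries reached 0.95 for 275 of 13590 other genes with Tagln, 294 with Des and 313 with Acta2, which is 2.02%, 2.16% and 2.30%. With Vim 70 genes, or 0.515%, did so. The opposite pattern, r of -0.95 or below, was found for 41 genes with Tagln, 38 with Des, 41 with Acta2 and 13 with Vim. In order of likeness to Tagln, Acta2 ranked 20 and Des 37 among 13590 genes, and Vim ranked 3982. By likeness to Des, Tagln ranked 31 and Acta2 123. By likeness to Acta2, Tagln ranked 22 and Des 157.

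The gene most like Tagln, Des and Acta2 by mean r was ENSRNOG00000035467, with r of 1.00, 1.00 and 0.99 over 6 libraries. Its level was low, at 5.22, 13.2 and 0.661 FPKM in MCA replicates 1, 2 and 3 and 3.98, 7.91 and 7.51 FPKM in suture replicates 1, 2 and 3. For Vim the most alike gene was ENSRNOG00000054560 (r = 0.99 over 6 libraries). It measured 6.99, 9.07 and 5.03 FPKM in MCA replicates 1, 2 and 3 and 1.95, 3.80 and 6.64 FPKM in suture replicates 1, 2 and 3. With only 6 libraries and 13591 genes, high correlations arise in number, and these are descriptions without a test.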

How the data were processed

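The deposited values are normalized FPKM made by the authors from NEBNext Ultra libraries sequenced on a DNBSEQ-T7 instrument, per the labels' protocols. The submitters' processing notes name limma without its role. For the aligner, counter, genome build, annotation and strandedness: not given in the sources used here.

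Library totals, gene lengths and fragments were recovered from the exact FPKM values, and all 21417 genes gave whole fragments (within 1e-06) in every library. They served for depth and for an added limma-voom fit only. No pair of libraries were copies (lowest chi-square per gene 44.3, where sampling noise gives about 1).

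The group difference was fitted by limma 3.58.1 (R 4.3.3) on log2(FPKM + 1), with a trend and no covariates, for genes averaging 1 FPKM or more. This kept 13591 and removed 7826 genes. Fold changes on that scale understate changes of low genes. Exact permutation tests ran over 20 assignments of libraries or 720 pairings (Python 3.11.15, numpy 2.4.6). Scripts were tested on simulated data. The alternatives were other pseudocounts, filters, scalings and weights, a replicate block and leaving out each library. The members, lists and tests were chosen with earlier results of these data known. The 4 members are named whatever their values. Beside them 1 identifier is given for the highest mean r with the muscle genes and 1 for the highest r with Vim. Lists of other markers had been set down by symbol and could not be matched.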

Additional observations from a re-analysis of the deposited data

How the results depend on the processing

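For Tagln, Des, Acta2 and Vim no alternative brought a group difference past the adjusted threshold, and the 3 muscle genes changed sign only without MCA replicate 3. Leaving out 1 library in turn gave log2 differences of -1.45 to 0.24 for Tagln, -1.15 to 0.51 for Des, -1.41 to 0.17 for Acta2 and 0.37 to 1.02 for Vim. In the same way the SD of log2 within MCA ran from 0.90 to 2.39 for Tagln, 0.89 to 2.34 for Des, 0.92 to 2.23 for Acta2 and 0.25 to 0.53 for Vim. Within suture it ran from 0.040 to 0.59 for Tagln, 0.18 to 0.60 for Des, 0.15 to 0.88 for Acta2 and 0.30 to 0.92 for Vim. Correlations with 1 library left out were 0.95 to 1.00 for Tagln with Des, 0.98 to 1.00 for Tagln with Acta2 and 0.89 to 1.00 for Des with Acta2, but 0.013 to 0.70 for Tagln with Vim, 0.037 to 0.75 for Des with Vim and 0.11 to 0.71 for Acta2 with Vim. Without MCA replicate 3, exact permutation p adjusted over the pairs were 0.05 for Tagln with Des, 0.05 for Tagln with Acta2 and 0.0667 for Des with Acta2. Those p rest on 5 libraries in place of 6. Over all genes, 0 passed the adjusted threshold except under array quality weights (35 genes), and limma-voom, added after seeing the data, also gave 0. At an unadjusted p under 0.05 there were 667 genes, 334 among genes averaging 5 FPKM or more, where fewer were tested, 1360 with array weights, and 511 to 1065 with 1 library left out, the most without MCA replicate 2. Adding the replicate block gave 1141, with limma adjusted p of 0.858 for Tagln, 0.923 for Des, 0.858 for Acta2 and 0.678 for Vim. With 1 library of each number in each group, the block cannot change a log2 difference. Nor can a filter, so under both only the standard errors and p-values could move. The labels do not say that numbers pair animals, so same-numbered libraries were not treated as pairs. Deviations of same-numbered libraries correlated at 0.42, 0.53 and -0.0016, and those of differently numbered libraries at -0.47 to 0.28. Replicates 1 and 2 thus gave the highest values, and whether they were paired was not tested. Why these values moved was not tested where no cause is given. Counting error at this depth was at most 1.54% for the 4 genes.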
